A study of Rattus norvegicus with 6 samples.

Results

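Among 8 genes of the low-oxygen response and of glycolysis, Vegfa rose and Hk2 fell in the embryonic cortex of the tish rat, while the other 6 did not pass the test. Over all tested genes 26.3% passed, so the share among the 8 genes was near that of the whole table. The 8 genes were taken by Ensembl gene ID from a list of Hif1a, Vegfa, Adm, Hk2, Gapdh, Pgk1, Pkm and Ldha, and they are 8 of the 32754 gene IDs in the deposited count table. All 8 were among the 14818 IDs that passed the filter on low counts. The symbols come with the list. The annotation of the Rnor_6.0 build was not used here and the reference table gave an Ensembl ID for 0 of its 47357 genes, so the symbols were not checked against an annotation and no ID was dropped.

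RNA came from the cortex of 6 embryos taken at day 18 of gestation. The controls were 3 Sprague-Dawley (SD) rats and the mutants 3 tish rats, which carry a layer of misplaced neurons below the normal cortex on both sides and, per the series title, a deletion in Eml1. Each library came from a separate animal, and each group held 2 males and 1 female. Libraries are numbered 1 to 3 within a group by accession order, since the labels carry no replicate number. The tissue is described as neocortex for SD in the protocol and as normally placed together with misplaced cortex for tish, so genotype and dissected tissue changed together and cannot be told apart. Litter is not given in the sources used here and cannot be told apart from genotype either. Libraries held 15625915 to 20844504 counts. SD 1 stood apart most within its group. A chi-square between 2 libraries was taken over genes with at least 20 counts in both together. It was 21.6 to 24.5 times its degrees of freedom between SD 1 and its replicates, and 14.6 between SD 2 and SD 3. Within tish the least alike were tish 2 and tish 3, at 15.4. Cortical and other cell type markers could not be looked up by symbol and are not analysed here. In such whole-tissue samples, fewer cells of a type and less RNA per cell cannot be told apart.

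As background, cells sense low oxygen through HIF-1, a transcription factor whose alpha subunit, encoded by Hif1a, is made continuously and is destroyed while oxygen is present. The level of its messenger RNA therefore says little about the activity of the protein. When the protein is stable it binds DNA at a short core sequence and raises genes for blood vessel growth, such as Vegfa and Adm, and genes for glycolysis, the pathway that turns glucose into pyruvate and lactate. In the embryonic cortex, vessels grow into the tissue from the surface toward the ventricle under the guidance of VEGF, and progenitor cells rely strongly on glycolysis.

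Promoter sequence is shown for the pair of genes that passed the test, Vegfa and Hk2, and for Ldha, whose level did not pass the test. With matches on both strands counted, the Ldha promoter held the most matches to the HIF core among the genes searched. The windows are the 250 bases before the gene start in the RefSeq table of build GRCr8, 5′ to 3′ on the gene's strand, and capitals mark ACGTG or GCGTG on either strand. Vegfa lies at chr9:22452604-22452853 on the plus strand, Hk2 at chr4:116841276-116841525 on the minus strand and Ldha at chr1:106507842-106508091 on the plus strand.
Vegfa: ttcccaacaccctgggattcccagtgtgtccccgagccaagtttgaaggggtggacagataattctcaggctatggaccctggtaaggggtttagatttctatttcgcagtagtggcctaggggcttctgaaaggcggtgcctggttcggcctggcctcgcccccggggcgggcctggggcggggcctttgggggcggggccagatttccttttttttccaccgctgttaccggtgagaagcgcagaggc
Hk2: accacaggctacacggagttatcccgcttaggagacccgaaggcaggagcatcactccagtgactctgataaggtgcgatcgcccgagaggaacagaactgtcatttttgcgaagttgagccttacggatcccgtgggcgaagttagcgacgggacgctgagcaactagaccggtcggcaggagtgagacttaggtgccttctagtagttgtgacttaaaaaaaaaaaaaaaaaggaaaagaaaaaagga
Ldha: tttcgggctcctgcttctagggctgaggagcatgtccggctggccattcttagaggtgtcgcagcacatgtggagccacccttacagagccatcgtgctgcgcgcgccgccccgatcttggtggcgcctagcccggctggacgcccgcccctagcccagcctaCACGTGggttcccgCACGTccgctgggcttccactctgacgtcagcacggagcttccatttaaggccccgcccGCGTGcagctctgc

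These windows of Vegfa and Hk2 held 0 matches and that of Ldha held 4. A palindromic CACGTG, which is also an E-box, counts on both strands, and Ldha and Hif1a had 1 each. With the palindrome counted as a single site, Ldha had no more sites than Gapdh. The table matched 7 of the 8 genes by symbol, and 3 of their 8 windows held a match, those of Hif1a (3 matches), Gapdh (3) and Ldha (4). Vegfa had a second start at chr9:22460028-22460277, also with 0 matches, and the windows of Pkm and Adm had 0. Over all 33469 promoter windows of this length, 36.7% held a match. A match describes the letters only, and the absence of one says only that these letters are not in this window.

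Setting tish against SD shows which of these genes differ in the mutant cortex before birth. Calls were made by edgeR's quasi-likelihood test over all tested genes, at a p under 0.05 after Benjamini-Hochberg adjustment. Of the 8 genes 2 were called, against 26.3% of all tested genes. In tish 1 was higher (background 13.4%) and 1 was lower (background 12.9%). The share of called genes was near that of the whole table. The 8 genes had a median log2 fold change of -0.14 and all tested genes a median of -0.02. The SD and tish libraries did not overlap in 3 of the 8 genes, Hif1a, Vegfa and Hk2, against 44.3% of all tested genes.

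**Figure D1:**
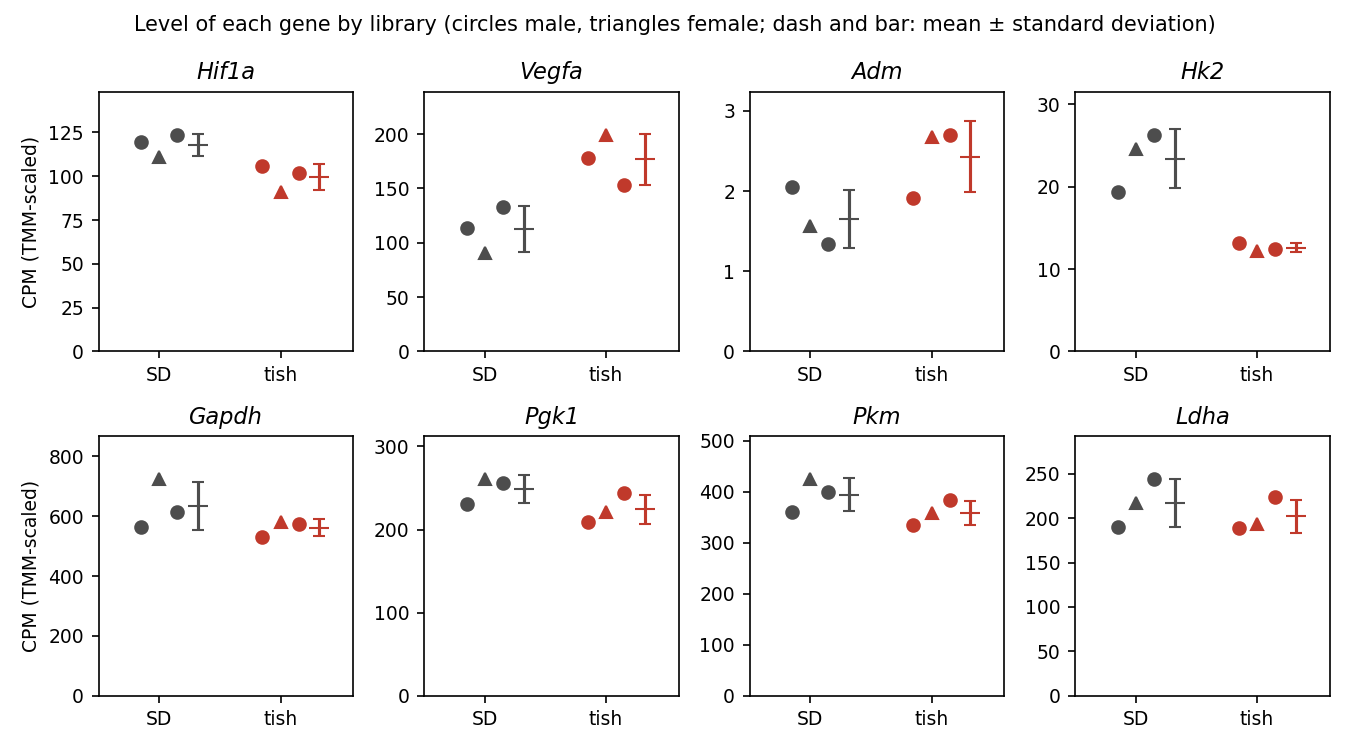
Level of each gene in CPM (y axis from 0) in each library, SD in grey and tish in red, circles male and triangles female, with the group mean and standard deviation as a dash and bar. Vegfa lay at 153 to 199 CPM in tish, above all SD libraries, Hk2 at 12.2 to 13.2 CPM, below all of them, and Gapdh, Pgk1, Pkm, Ldha and Adm overlapped between the groups.

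Hif1a, the regulator of the set, encodes the oxygen-regulated subunit of HIF-1. Levels are given in CPM, counts scaled by TMM to a common library total. Hif1a (ENSRNOG00000008292) stood at 119, 111 and 123 CPM in SD and at 106, 91.3 and 102 CPM in tish, in the order of libraries 1, 2 and 3 of each group, which is kept below. All 3 tish libraries lay below all SD libraries, by a small step. Group means were 118 ± 6.29 CPM for SD and 99.7 ± 7.52 CPM for tish (n = 3 each, ± standard deviation), a log2 fold change of -0.24 (SE 0.08), and the adjusted p of 0.062 in edgeR missed the threshold. The unadjusted 95% interval of the log2 fold change ran from -0.43 to -0.05, a fold of 0.740 to 0.964. Hif1a passed in edgeR with sex as a second term (adjusted p = 0.0244) and without scaling factors (adjusted p = 0.0440), and in 0 of the other 14 settings tried.

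Vegfa encodes the main growth factor for blood vessels, a secreted ligand of receptors on endothelial cells. Vegfa (ENSRNOG00000019598) reached 114, 90.9 and 133 CPM in SD libraries and 178, 199 and 153 CPM in tish libraries. The lowest tish library, tish 3, stood above the highest SD library, SD 3, and the groups did not overlap. Vegfa rose from 112 ± 21.0 to 177 ± 23.1 CPM (n = 3 each, ± standard deviation), a fold of 1.57 with a 95% interval of 1.24 to 1.99 (log2 fold change 0.65, SE 0.15, edgeR adjusted p = 0.0137). Of the tested genes, 1412 had a higher log2 fold change, and 53.2% of the 3894 called genes had a larger absolute one.

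The call of Vegfa was kept in 15 of the 16 other settings and lost without tish 1. Without tish 1 the log2 fold change stayed at 0.65, the edgeR adjusted p was 0.0511, and calls over all genes fell from 3894 to 2437. The female libraries held the extremes, with SD 2 the lowest and tish 2 the highest of the 6. In males alone, 2 against 2, the log2 fold change was 0.43 (edgeR adjusted p = 0.0497). The difference between tish and SD on the log2 CPM scale was 1.13 between the 2 females and 0.42 between the means of the males. With 1 female per genotype, the difference between the sexes was not tested.

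Adm encodes adrenomedullin, a secreted peptide that widens blood vessels and is a known HIF target. The transcript (ENSRNOG00000027030) was scarce, with 36, 29 and 25 counts in SD and 30, 55 and 53 counts in tish. On the CPM scale it stood at 2.05, 1.56 and 1.34 in SD and at 1.92, 2.67 and 2.70 in tish. Here tish 1 lay below SD 1, so the groups overlapped. The log2 fold change was 0.56 (SE 0.26), near that of Vegfa, but its 95% interval ran from -0.03 to 1.15 and its edgeR adjusted p was 0.144. By counts summed over each group, 90 in SD and 138 in tish, the library-adjusted ratio was 1.502 with an exact 95% interval of 1.14 to 1.98, which covers counting error only and not the spread between animals.

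Hk2 encodes hexokinase 2, the inducible enzyme that traps glucose in the cell at the entry of glycolysis. Hk2 (ENSRNOG00000006116) reached 19.4, 24.6 and 26.3 CPM in SD libraries and 13.2, 12.2 and 12.4 CPM in tish. The tish libraries lay within 1 CPM of each other and far below the lowest SD library. Hk2 fell from 23.4 ± 3.57 to 12.6 ± 0.521 CPM (n = 3 each, ± standard deviation), to 0.538 of the SD level with a 95% interval of 0.432 to 0.670 (log2 fold change -0.89, SE 0.14, edgeR adjusted p = 0.00216). Of the tested genes, 818 had a lower log2 fold change. Hk2 was called in all 16 other settings tried, with log2 fold changes from -1.01 without SD 1 to -0.81 without SD 3. With SD 1 and tish 3 left out together, both Hk2 (edgeR adjusted p = 0.00214) and Vegfa (0.0132) were called.

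**Figure D2:**
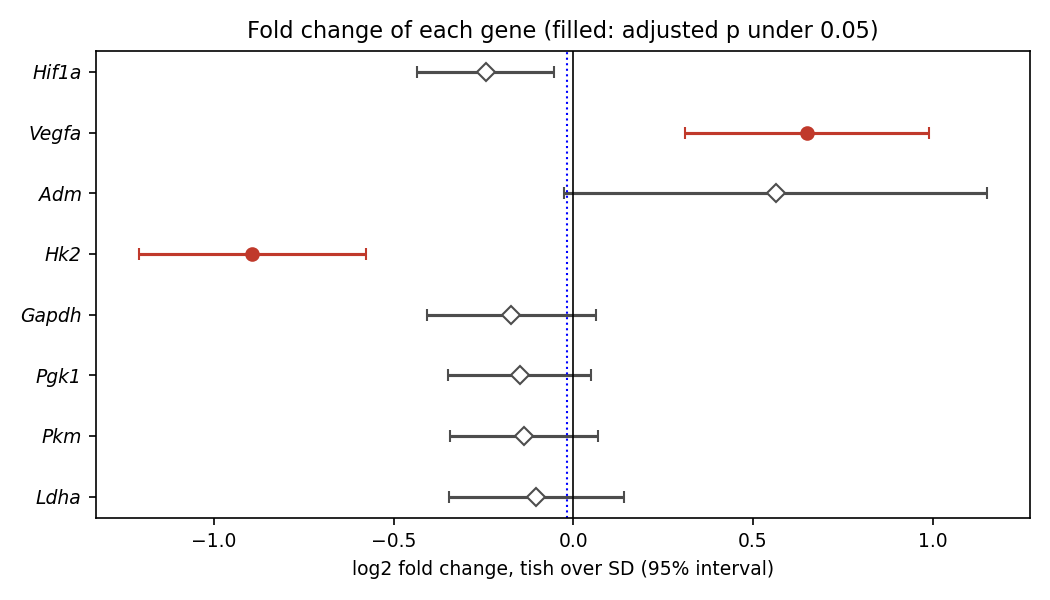
Log2 fold change of tish over SD for each gene (x axis) with its unadjusted 95% interval, filled red for genes with an adjusted p under 0.05, with 0 as a solid line and the median of all tested genes (-0.02) dotted. The intervals of Vegfa and Hk2 lie on opposite sides of 0, and those of Adm, Gapdh, Pgk1, Pkm and Ldha include 0.

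The 4 later enzymes of glycolysis did not pass the test. Gapdh (ENSRNOG00000018630), which oxidises glyceraldehyde-3-phosphate and is widely used as a reference gene, stood at 565, 723 and 613 CPM in SD and at 530, 582 and 575 CPM in tish. For Gapdh tish 1 lay below the SD range and the other 2 tish libraries in its lower part (log2 fold change -0.17, 95% interval -0.41 to 0.06, edgeR adjusted p = 0.256). Pgk1 (ENSRNOG00000058249), the next enzyme and the first to yield ATP in the pathway, had 230, 260 and 256 CPM in SD and 209, 221 and 243 CPM in tish. Only tish 3 stood within the SD range of Pgk1 (log2 fold change -0.15, 95% interval -0.35 to 0.05, edgeR adjusted p = 0.248).

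Pkm (ENSRNOG00000011329), the pyruvate kinase of brain and muscle, which makes pyruvate at the last step of glycolysis, had 360, 424 and 399 CPM in SD and 336, 358 and 383 CPM in tish. Its groups overlapped through tish 3 and SD 1 (log2 fold change -0.14, 95% interval -0.34 to 0.07, edgeR adjusted p = 0.308). Gene counts do not part the splice forms of Pkm. Ldha (ENSRNOG00000013009), which turns pyruvate into lactate and is among the best known HIF targets, had 190, 217 and 244 CPM in SD and 189, 194 and 223 CPM in tish, the smallest difference of the 8 genes (log2 fold change -0.10, 95% interval -0.35 to 0.14, edgeR adjusted p = 0.528).

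For these 4 enzymes the intervals leave out a rise above a fold of 1.10 and a fall below a fold of 0.755, taken one gene at a time and unadjusted. All 4 log2 fold changes were below 0, in a range from -0.17 to -0.10. Over all 14818 tested genes, 7701 were below 0. Of the 4, 0 were called, against 26.3% of all tested genes. The 4 were also below 0 in every 1 of the 16 other settings tried, which refit all or some of the same libraries. Genes with near-identical copies can share reads, and copies of Gapdh in particular are common in rodent genomes. The counting rule for reads with several places is not known here, and the levels of Gapdh, Pgk1, Pkm and Ldha are uncertain to that extent.

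The lowest library of each group was mostly shared by the glycolysis genes, and the highest was shared by fewer of them. The highest SD library was SD 2 for Gapdh, Pgk1 and Pkm, and the highest tish library was tish 3 for Pgk1, Pkm and Ldha. SD 1 was the lowest SD library in 5 of the 5 glycolysis genes, and tish 1 the lowest tish library in 4 of them, all but Hk2, in which tish 1 was the highest of tish. How often these libraries were the lowest over all tested genes was not counted, so the order may not be particular to these genes. Together the 5 genes took 0.142%, 0.163% and 0.155% of all counts in SD, and 0.128%, 0.135% and 0.139% in tish. These shares did not overlap, but after TMM scaling the sums did, at 1365, 1649 and 1538 CPM in SD and 1277, 1367 and 1438 CPM in tish. SD 1 stood above tish 2 and tish 3 by share of counts and below both after scaling.

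Counts set against Gapdh in the same library do not depend on the scaling, but they do depend on Gapdh. Gapdh was itself lower in tish, though not called (log2 fold change -0.17), and was highest in SD 2. Set against Gapdh, the log2 difference was 0.83 for Vegfa and -0.72 for Hk2, where the fit gave 0.65 and -0.89. Vegfa had 202, 126 and 217 counts per 1000 Gapdh counts in SD and 336, 342 and 266 in tish. Hk2 had 34.4, 34.0 and 42.9 in SD and 24.9, 21.0 and 21.6 in tish. The groups did not overlap in either ratio, and Vegfa went up and Hk2 down as they did in CPM. The exact 2-sided permutation p was 0.1 for each of the 2, the smallest that 3 against 3 libraries can give, and 0.35 adjusted over the 7 ratios to Gapdh.

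The other ratios to Gapdh overlapped between the groups. Hif1a had 189 ± 30.8 counts per 1000 Gapdh counts in SD and 178 ± 21.3 in tish (n = 3 each, ± standard deviation), an overlap where its CPM had none (exact permutation p = 0.7). Pgk1 had 395 ± 31.1 in SD and 399 ± 21.9 in tish, Pkm 625 ± 33.8 and 638 ± 26.1, and Ldha 345 ± 49.4 and 359 ± 27.8 (n = 3 each, ± standard deviation). The exact permutation p was 0.9 for Pgk1, 0.7 for Pkm and 0.8 for Ldha, and differences of this size were within the spread of the libraries. Adm had 3.63, 2.16 and 2.19 in SD and 3.61, 4.59 and 4.69 in tish (exact permutation p = 0.2). Adjusted over the 7 ratios, the p was 0.467 for Adm and 0.9 for each of Hif1a, Pgk1, Pkm and Ldha.

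**Figure D3:**
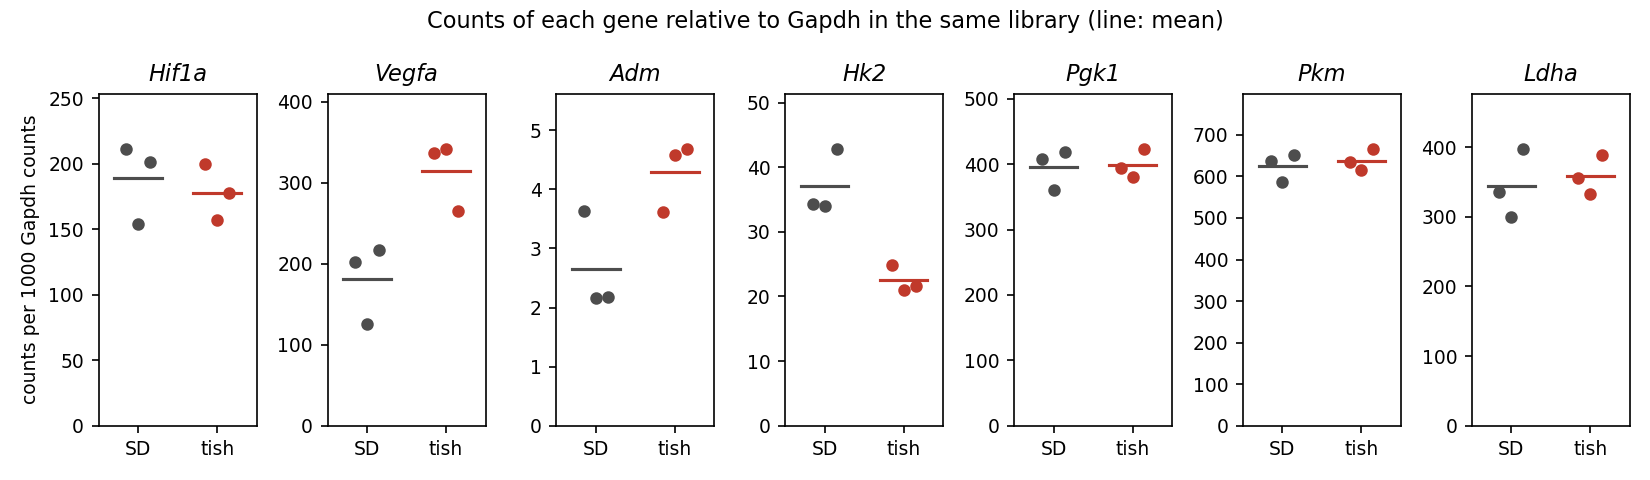
Counts of each gene per 1000 counts of Gapdh in the same library (y axes from 0), SD in grey and tish in red, with the group means as lines. The groups are apart for Vegfa (126 to 217 in SD, 266 to 342 in tish) and Hk2 (34.0 to 42.9 in SD, 21.0 to 24.9 in tish) and overlap for the other 5 genes.

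Vegfa and Hk2, both known HIF targets, moved in opposite directions. There were 5.87, 3.69 and 5.05 Vegfa counts for each Hk2 count in SD and 13.5, 16.3 and 12.3 in tish. The mean ratio was 4.87 ± 1.10 in SD and 14.0 ± 2.03 in tish (n = 3 each, ± standard deviation), a difference of 1.54 on the log2 scale. The pair was chosen because both were called in opposite directions, so this ratio is a description with no test. Counts are not per length, so its size says nothing of which transcript is the more abundant.

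The pattern of Hk2 over the 6 libraries was shared by many genes. The 2 closest by Pearson's r of log2 CPM were ENSRNOG00000008450 (r = 0.9995) and ENSRNOG00000004242 (r = 0.9985), which had log2 fold changes of -1.51 and -1.23. The file does not pair these IDs with symbols. An r above 0.9 with Hk2 was found for 1647 tested genes, 11.1% of all. The 6 points fall into 2 genotypes that share libraries for every gene, so r is given as a description.

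**Figure D4:**
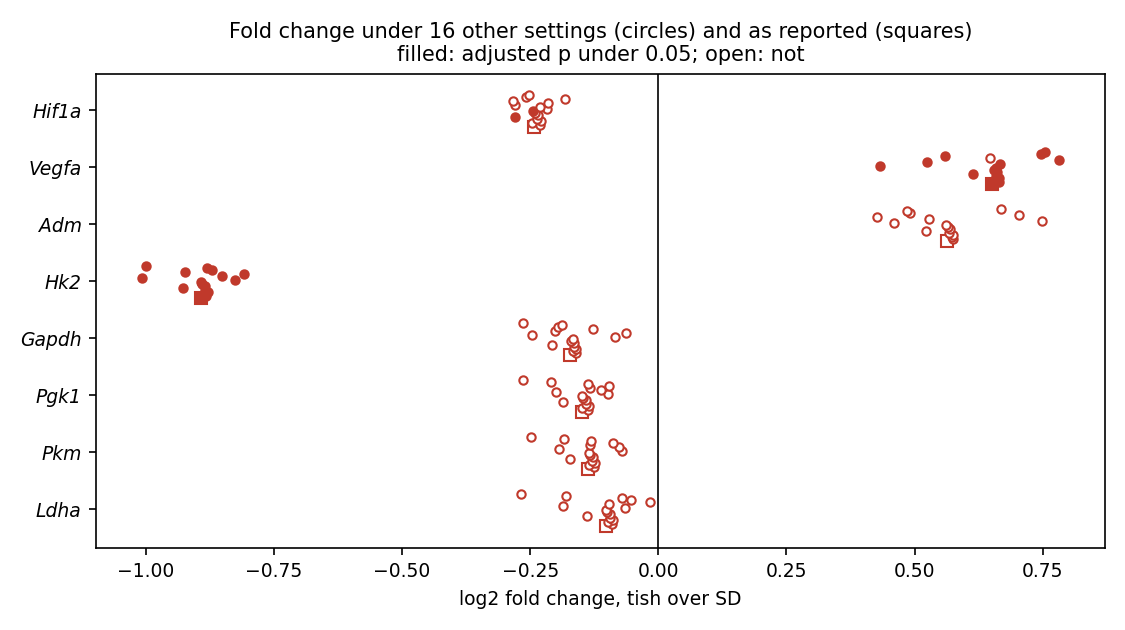
Log2 fold change of tish over SD (x axis) for each gene as reported (squares) and under 16 other settings (circles), filled where the adjusted p was under 0.05. Hk2 is filled throughout, Vegfa throughout but for the setting without tish 1, Hif1a in 2 settings, and no gene crosses 0.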

How the data were processed

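RNA sequencing counts of 6 libraries, 3 SD and 3 tish, were analysed. The authors deposited raw counts per Ensembl gene ID, made with STAR and featureCounts 1.5.0 on Rnor_6.0 per the submitters' processing notes. The annotation release, strand setting and treatment of reads with several places are not named in these sources. The table lists its genes 2 times with 0 differing values, and each ID was used once.

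Genes were kept by filterByExpr (minimum count 10), scaled by TMM and tested with edgeR 4.0.16 in R 4.3.3 (robust quasi-likelihood F test, genotype as the only term, adjusted over all tested genes, threshold 0.05). The procedure was tested on simulated data. SE is the log2 fold change over the root of F. Log2 CPM used a prior count of 2. Alternatives were DESeq2 1.42.0, limma 3.58.1 voom, other scalings, filters and thresholds, sex as a term, males alone and libraries left out. A floor of 3 counts would be 0.144 to 0.192 CPM and covers counting error only. It is given for scale and entered no filter or test.

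The 8 genes, the lists and the alternatives were chosen with earlier results of these data known, and the ratios, the split by sex and the choice of promoters after the values were seen. All 8 genes are named, and the likeness rule takes the 2 genes closest to the called gene of largest change. Lists of other pathway and marker genes need symbols and were not analysed here.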

Additional observations from a re-analysis of the deposited data

How the results depend on the processing

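Of 128 values for single genes under 16 other settings, 125 kept their direction and side of the threshold, 0 reversed, 1 was lost (Vegfa without tish 1) and 2 were gained (Hif1a without scaling factors and with sex as a second term). In those 2 settings 2 of the 8 genes were called lower, as at an adjusted p under 0.1. The calls over all 14818 tested genes grew as well. Those lower in tish were 2283 without scaling factors, 2137 with sex as a second term and 2602 at an adjusted p under 0.1. At an adjusted p under 0.01, 1 of the 8 genes was called and 0 were higher in tish. With 1 library left out the called genes numbered 1 to 2, those higher in tish 0 to 1 and those lower 1. Calls over all genes numbered 3894. They were 2130 with males alone (1170 higher and 960 lower in tish) and 1930 at an adjusted p under 0.01 (1046 and 884), and with 1 library left out ran from 2437 without tish 1 to 4764 without SD 1. Without tish 3 they were 2502. The genes lower in tish, 1914 with all libraries, were 1130 without tish 1, 1172 without tish 3 and 1262 without SD 3, and those higher, 1980, were 1307 without tish 1. The cause was not tested. With SD 1 and tish 3 left out together Vegfa and Hk2 were both called, at an adjusted p of 0.0132 and 0.00214. Median log2 fold changes of all genes lay between -0.05 and -0.004. No paired analysis was possible because the libraries came from separate animals and the labels match no SD animal to a tish animal. The replicate numbers used here only name the libraries. Depth limits Adm, at 25 to 55 counts a library.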

Other observations

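The difference between tish and SD was larger in the females than in the males, as an absolute log2 difference, in 8 of the 8 genes and in 57.6% of all 14818 tested genes. For Gapdh it was -0.31 in females and -0.09 in males, for Pkm -0.25 and -0.08, and for Hk2 -1.001 and -0.81. SD 2, the SD female, had the highest level of Gapdh, Pgk1 and Pkm and the lowest of Hif1a and Vegfa within SD. Each female value is a single library and each male value a mean of 2, so the larger spread of single libraries enters these differences, and the difference between the sexes was not tested.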
